A study of Mus musculus with 16 samples.

Results

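The Notch receptors, their ligands and their best known target genes were described in hematopoietic stem cells (HSCs), which renew themselves in the marrow and give rise to all blood cells. The 10 genes were listed by name as 4 receptors (Notch1, Notch2, Notch3 and Notch4), 4 ligands (Dll1, Dll4, Jag1 and Jag2) and 2 targets (Hes1 and Hey1), and all 10 were found among the 21851 protein-coding genes of GENCODE M21, the annotation used here (mouse genome build mm10). HSCs of young C57BL/6 mice (10 weeks) were compared with those of aged C57BL/6 mice (20 months). No genotype or treatment separated the groups. The cells carried Sca-1, c-kit and CD150 and lacked CD34, CD48, Flt3, lineage markers and what the labels write as IL-7 (the receptor IL-7Rα in the study's methods, which also give the mice as female). The 3 histone marks H3K4me3, H3K27me3 and H2AK119ub1 were mapped by chromatin immunoprecipitation and sequencing (ChIP-seq) in 16 libraries, a pair per mark at each age plus a pair of inputs at each age, which make 8 groups. The authors deposited 1 pooled peak list for each mark and age, so the 6 lists have no replicate error and the ages could not be tested against each other.

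Notch signalling passes between touching cells: a ligand of the Delta or Jagged type on one cell binds a Notch receptor on its neighbour, the receptor is cut by proteases, and its freed intracellular part enters the nucleus, where it joins the DNA-binding protein RBPJ and switches on targets such as Hes1 and Hey1. The pathway is required for the first HSCs of the embryo and directs T cell fate, and its ligands are presented to HSCs by endothelial and other cells of the marrow niche. H3K4me3 marks the start sites of active or poised genes, whereas the Polycomb repressive complexes write H3K27me3 and H2AK119ub1.

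A gene was counted at its promoter when a peak lay within 1 kb of its coding start site, and in its window when a peak lay in the gene body or within 5 kb of it. The most frequent difference between the ages was in H2AK119ub1, which was listed at the promoters of 1 of the 10 Notch genes in young HSCs and of 6 in aged HSCs. The share of all genes was 1.91% in young and 14.0% in aged HSCs. In their windows 4 Notch genes in young and 9 in aged HSCs held an H2AK119ub1 peak, against 5.99% and 29.0% of all genes. H3K4me3 was listed at 5 Notch promoters in young and 4 in aged HSCs, beside 33.8% and 23.3% of all genes, and in 7 and 5 windows, beside 40.6% and 29.0%. H3K27me3 was listed at 2 promoters in young HSCs (16.0% of all genes) and 1 in aged HSCs (8.24%), and in 3 windows (27.8%) and 2 windows (16.5%). The Notch windows ran from 13413 to 146835 bp. Among the 17444 genes with windows in that range, the shares with a window peak in young and aged HSCs were 42.9% and 30.5% under H3K4me3, 26.4% and 15.0% under H3K27me3, and 5.71% and 28.3% under H2AK119ub1.

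**Figure D1:**
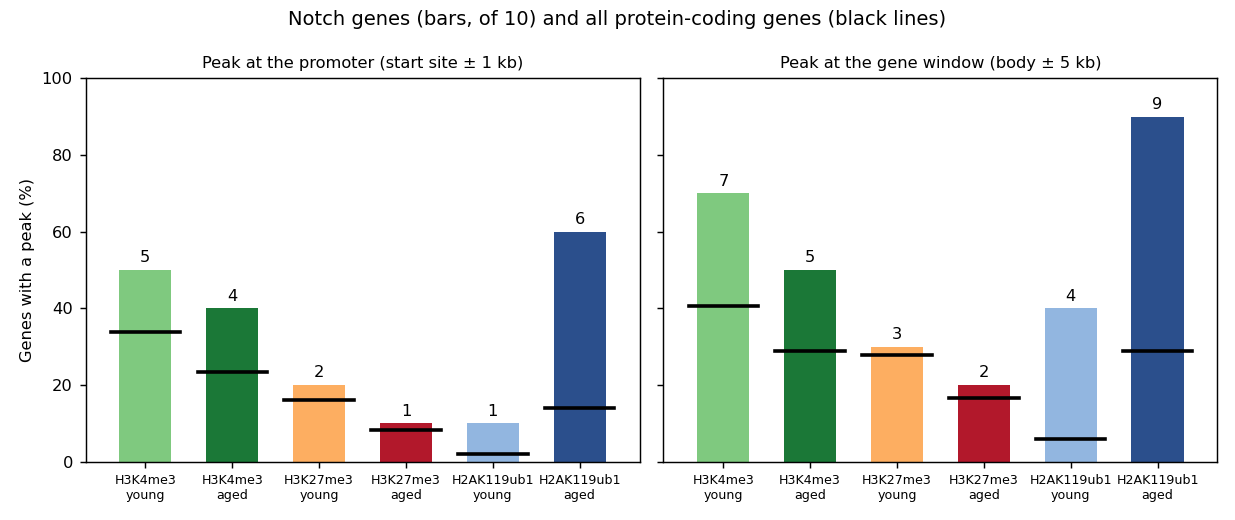
Share of genes with a peak at the promoter (left) or in the gene window (right) in each of the 6 pooled lists, in percent. Bars give the 10 Notch genes with their number above, and black lines give all 21851 protein-coding genes; the H2AK119ub1 bars of aged HSCs stand at 6 and 9 genes, above the lines at 14.0% and 29.0%.

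The genes behind these counts differed by mark. At promoters, H3K4me3 was listed at both ages at Dll4, Jag1 and Hey1 (17.5% of all genes), in young HSCs only at Notch1 and Notch2 (16.3%), and in aged HSCs only at Dll1 (5.78%). H3K27me3 was listed at both ages at Hey1 (7.83%; the aged count went from 1 to 0 when an overlap of 100 bp was required), in young HSCs only at Dll1 (8.22%), and in aged HSCs only at no Notch gene (0.412%). H2AK119ub1 was listed at both ages at Dll4 (1.50%), in young HSCs only at none (0.412%), and in aged HSCs only at Notch1, Notch3, Jag1, Jag2 and Hey1 (12.5%). By role, the H3K4me3 promoter count was 2 of 4 receptors in young and 0 of 4 in aged HSCs, whereas it was 2 of 4 and 3 of 4 for the ligands and 1 of 2 at both ages for the targets.

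Part of these counts moved with the size of the lists. The share of all genes was not counted under lists cut to equal size, here or below. Whether such shifts differ from those of all genes is therefore not known. The aged H2AK119ub1 list held 17768 peaks and the young one 2593. When each age was given only its 2593 peaks of lowest q-value, 1 Notch promoter was listed at each age, Dll4 in young and Notch1 in aged HSCs, and 4 windows in young stood against 2 in aged HSCs (Notch1 and Hey1). For H3K4me3, the young list held 11371 peaks and the aged one 6723, and with 6723 peaks from each age the young promoter count was 2 (Notch2 and Jag1) and the aged count 4. With equal numbers, therefore, Notch2 was the receptor promoter listed in young HSCs only, and the promoters of Dll1, Dll4 and Hey1 were listed in aged HSCs only. The aged H3K4me3 list was kept whole, so none of its listings could change.

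**Figure D2:**
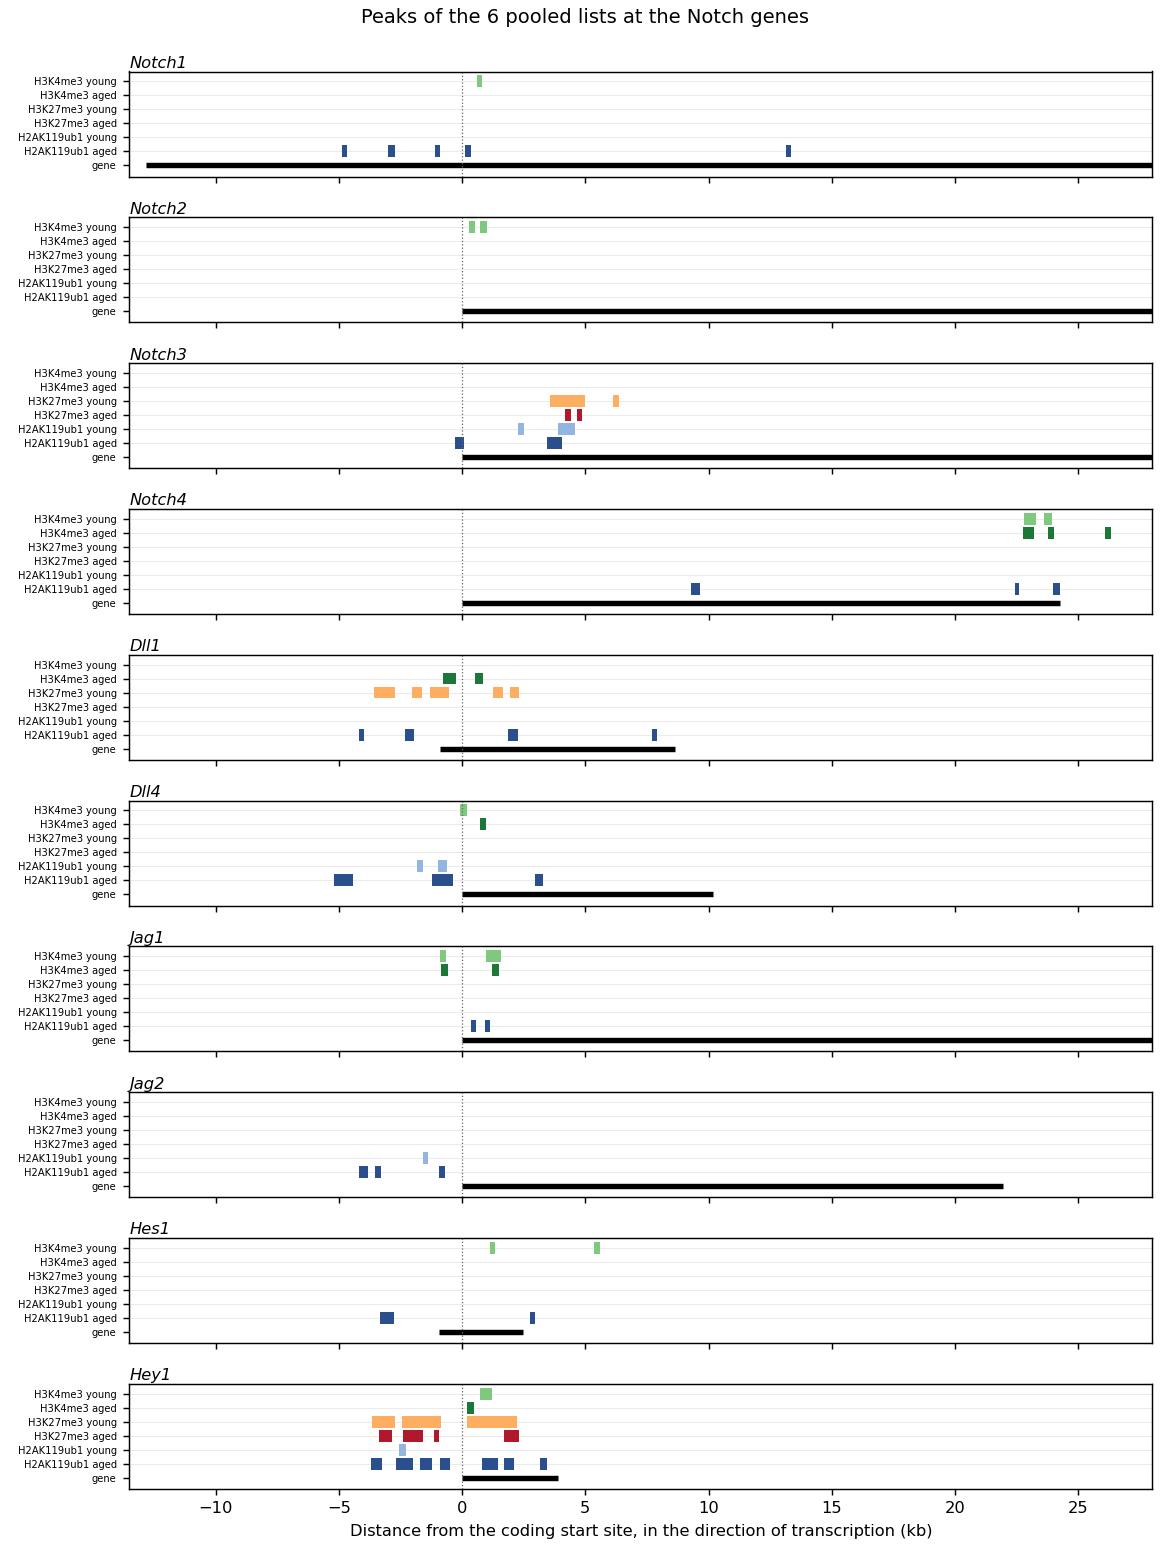
Peaks of the 6 lists at each Notch gene, drawn to scale by their distance from the coding start site in kb (positive downstream, in the direction of transcription; dotted line at the start site). The black line is the gene body, which runs on past the right edge for Notch1, Notch2, Notch3 and Jag1; the aged H2AK119ub1 row holds peaks at every gene but Notch2, and Notch1, Notch2 and Hes1 hold H3K4me3 peaks in young HSCs only.

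Notch1 and Notch2, the receptors best known in blood cells, had H3K4me3 just inside the gene in young HSCs and none in aged HSCs. The Notch1 peak lay in an intron 599 bp downstream of the start site (chr2:26503024-26503223) with a fold enrichment over background of 3.73. The reads at the summit of each H3K4me3 peak could be recovered from the deposited values: this peak stood on 19 pooled reads (exact Poisson 95% interval 11.4 to 29.7, counting error only) over a background of 4.35 reads. Notch2 held a peak 274 bp from its start site at 4.41-fold (20 reads) and another at 741 bp at 4.68-fold (21 reads, 13.0 to 32.1). No listed H3K4me3 peak of either age stood on fewer than 13 reads, so an unlisted promoter was not detectable at this depth and cannot be called unmarked. The intronic DNA under the Notch1 peak and the first Notch2 peak is shown because these were the receptor promoters listed in young HSCs only. Both stretches are rich in CG dinucleotides (capitals), 15 in 200 bases at Notch1 and 29 in 262 bases at Notch2, with ratios of observed to expected CG of 1.01 and 1.05. The second Notch2 peak was not, with 6 CG and a ratio of 0.521, and the median of the young H3K4me3 list was 0.604. Sequences are from the RefSeq genome GRCm38.p6, the same assembly as mm10, and run 5′ to 3′ along the strand of the gene, minus for Notch1 and plus for Notch2.
Notch1 intronic H3K4me3 peak, young, chr2:26503024-26503223: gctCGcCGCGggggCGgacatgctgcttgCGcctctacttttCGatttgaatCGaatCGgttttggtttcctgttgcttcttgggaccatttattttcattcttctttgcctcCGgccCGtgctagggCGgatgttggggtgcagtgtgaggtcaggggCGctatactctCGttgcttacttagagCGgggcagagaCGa
Notch2 intronic H3K4me3 peak, young, chr3:98013812-98014073: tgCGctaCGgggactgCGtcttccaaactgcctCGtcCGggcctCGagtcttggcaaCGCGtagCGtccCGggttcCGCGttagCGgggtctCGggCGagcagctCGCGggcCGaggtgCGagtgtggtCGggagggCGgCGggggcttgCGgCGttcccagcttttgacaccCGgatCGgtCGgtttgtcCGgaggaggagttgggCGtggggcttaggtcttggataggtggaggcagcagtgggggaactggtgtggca

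In aged HSCs the 5′ part of Notch1 held H2AK119ub1, which was listed in 5 separate regions over 1123 bp of its window. A region 128 bp inside the gene covered untranslated and coding sequence at 3.30-fold (chr2:26503451-26503694). A second, 889 bp upstream of the start site, reached 3.97-fold and a −log10 q of 3.17, and 96.3% of the aged list had a weaker q-value (chr2:26504711-26504924). The other Notch1 regions lay 2731 and 4684 bp upstream, inside longer noncoding transcripts of the gene, and 13130 bp downstream. None of the 5 overlapped the young H3K4me3 peak by even 1 bp. Notch2 was the exception among the receptors, with no Polycomb mark in its window of 146835 bp at either age and no peak of any list in aged HSCs.

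Notch3, a receptor known best from the smooth muscle of vessels, had no H3K4me3 at either age and carried both Polycomb marks inside the gene. In young HSCs a region of H3K27me3 of 1423 bp began 3578 bp downstream of the start site, at 3.15-fold, and an H2AK119ub1 region of 713 bp lay wholly within it at 3.19-fold. In aged HSCs the H3K27me3 of this intron was listed as 2 regions of 200 and 221 bp at 3.27-fold and 3.09-fold, both inside the young region. The bases of the Notch3 window under H3K27me3 thus numbered 1699 in young and 421 in aged HSCs, whereas those under H2AK119ub1 numbered 950 and 968. The H2AK119ub1 differed in place: 1 aged region of 615 bp overlapped the young intronic region by 183 bp, and the other lay over the start site (chr17:32166795-32167147, 3.11-fold, −log10 q of 1.44), where no young region was listed. That q-value was weak, with 24.1% of the aged list below it. The aged region covered all 250 bases upstream of the RefSeq start site, shown here on the minus strand with 17 CG in capitals.
Notch3 upstream, chr17:32166891-32167140: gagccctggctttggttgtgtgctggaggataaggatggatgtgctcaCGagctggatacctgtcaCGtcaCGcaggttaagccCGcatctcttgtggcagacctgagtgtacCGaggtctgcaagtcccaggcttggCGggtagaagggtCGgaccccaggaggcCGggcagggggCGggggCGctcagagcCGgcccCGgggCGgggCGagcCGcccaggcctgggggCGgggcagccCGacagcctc

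Notch4, a receptor of the endothelium, was without a promoter peak in all 6 lists. Its H3K4me3 lay near the 3′ end of the gene and was listed at both ages. The stronger young peak (chr17:34587039-34587531) was 22771 bp from the coding start site, at 5.04-fold on 26 reads (17.0 to 38.1). The aged peak (chr17:34587037-34587470) stood at 4.86-fold on 21 reads (13.0 to 32.1), and the 2 peaks shared 432 bp. With 92.4% of the young list below it in q-value, this was the strongest H3K4me3 peak of any Notch gene in young HSCs. It covered the start of a noncoding transcript of Notch4 and lay 2275 bp from the start site of the neighbouring gene Gpsm3. A weaker pair, at 4.25-fold in young and 3.98-fold in aged HSCs, shared 145 bp next to it, and a further aged peak at 3.98-fold lay within Gpsm3. In aged HSCs 3 H2AK119ub1 regions covered 811 bp of the Notch4 window, and 1 of them overlapped the weaker H3K4me3 peak by 21 bp. The H3K4me3 of the Notch4 window therefore gives no level for the receptor's own promoter.

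**Figure D3:**
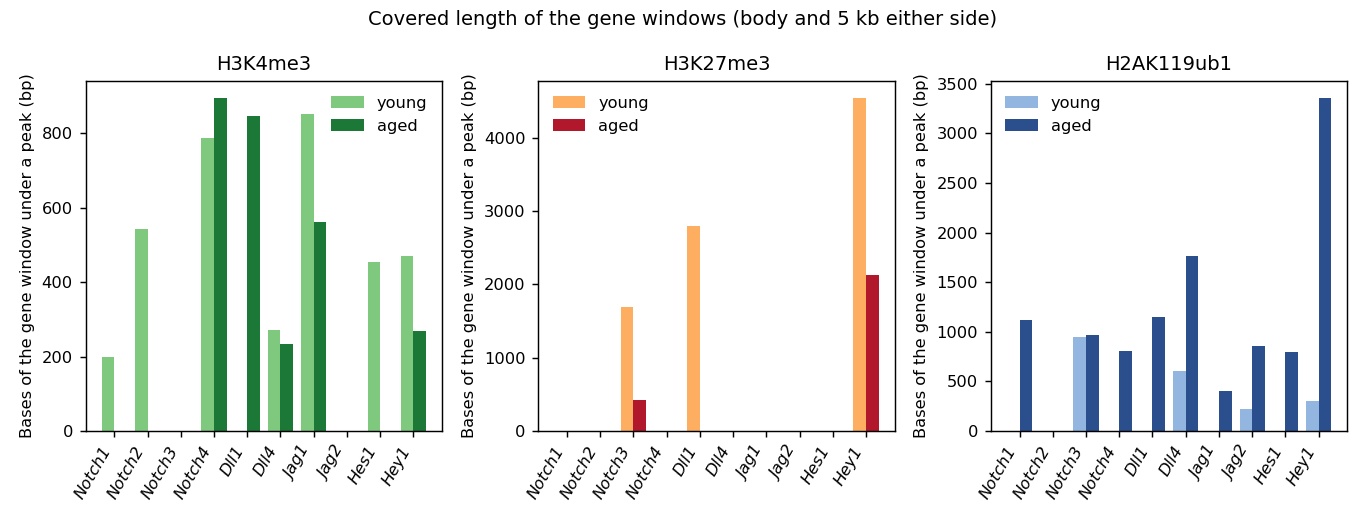
Bases of each gene window (gene body and 5 kb either side) under a peak, in bp, for H3K4me3 (left), H3K27me3 (middle) and H2AK119ub1 (right), with young HSCs as light and aged HSCs as dark bars. Hey1 has the longest H3K27me3 (4546 bp young, 2122 bp aged) and the longest aged H2AK119ub1 (3359 bp), and the H2AK119ub1 bars of aged HSCs exceed those of young HSCs at 9 of the 10 genes.

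Dll1, a Delta ligand, had H3K27me3 at its promoter in young and H3K4me3 in aged HSCs. In young HSCs 5 regions of H3K27me3 covered 2803 bp, or 14.4% of its window, at 2.65-fold to 3.09-fold, and no H3K4me3 was listed. In aged HSCs no H3K27me3 was listed, and 2 H3K4me3 peaks lay either side of the start site, one 269 bp upstream (chr17:15376245-15376740, 4.64-fold, 20 reads, 12.2 to 30.9) and one 512 bp downstream (3.98-fold, 17 reads). The young H3K27me3 region nearest the start site (chr17:15376507-15377274, 2.96-fold, −log10 q of 2.48) and the aged upstream peak of H3K4me3 covered some of the same bases. Aged HSCs also held 4 H2AK119ub1 regions of 1145 bp in all, none within 1 kb of the start site. The promoter side of Dll1 overlaps A930024N18Rik, a long noncoding RNA, so a mark there cannot be given to either gene alone. With equal numbers of peaks from each age, the H3K27me3 of the Dll1 promoter was still listed in young HSCs. The rest of this pattern could not change, since the cut shortened only the young lists of these marks. The aged lists were kept whole, and the young H3K4me3 list held no Dll1 peak to lose. The 250 bases before the more distant RefSeq start site, all under the young H3K27me3 region, are shown on the minus strand with 13 CG in capitals.
Dll1 upstream, chr17:15376933-15377182: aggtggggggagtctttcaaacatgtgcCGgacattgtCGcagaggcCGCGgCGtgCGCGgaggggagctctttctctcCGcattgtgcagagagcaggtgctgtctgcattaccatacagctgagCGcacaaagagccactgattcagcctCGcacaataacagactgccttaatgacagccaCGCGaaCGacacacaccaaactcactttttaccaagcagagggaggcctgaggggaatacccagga

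Dll4, the Delta ligand of arterial endothelium and thymus, had H3K4me3 and H2AK119ub1 at its promoter at both ages, each on its own side. The young H3K4me3 peak lay over the start site (chr2:119325705-119325975) at 3.61-fold on 16 reads (9.15 to 26.0). The aged peak lay 718 bp downstream in coding sequence at 4.42-fold on 19 reads (11.4 to 29.7), and the 2 peaks shared no base. H2AK119ub1 lay upstream. In young HSCs a region of 372 bp (chr2:119324794-119325165) stood at 3.13-fold, and in aged HSCs a region of 839 bp around it (chr2:119324561-119325399) stood at 3.51-fold with a −log10 q of 2.14. The bases under H2AK119ub1 in the Dll4 window numbered 603 in young and 1768 in aged HSCs. The stretch overlaps Gm14207, a noncoding transcript. It was the only H2AK119ub1 region of a Notch promoter that was listed at both ages, and its middle 300 bases are shown beside the 250 bases directly before the start site, of which the young H3K4me3 peak covered 79. Both are on the plus strand, and the CG in capitals number 10 in the first and 14 in the second.
Dll4 H2AK119ub1 at both ages, chr2:119324830-119325129: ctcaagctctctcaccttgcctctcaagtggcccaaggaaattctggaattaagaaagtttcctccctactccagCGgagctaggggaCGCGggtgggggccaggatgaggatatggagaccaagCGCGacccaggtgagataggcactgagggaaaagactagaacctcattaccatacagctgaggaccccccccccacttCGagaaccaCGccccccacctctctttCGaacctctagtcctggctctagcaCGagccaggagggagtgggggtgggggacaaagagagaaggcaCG
Dll4 upstream, chr2:119325534-119325783: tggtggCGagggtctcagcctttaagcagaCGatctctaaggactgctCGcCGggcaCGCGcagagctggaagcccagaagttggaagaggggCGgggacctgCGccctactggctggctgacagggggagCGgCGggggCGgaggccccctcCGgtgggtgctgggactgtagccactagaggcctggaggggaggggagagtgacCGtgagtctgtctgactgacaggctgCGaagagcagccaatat

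Jag1, a Jagged ligand of the marrow niche, had the same pair of H3K4me3 positions at both ages. The downstream peak was listed at 4.44-fold in young HSCs (chr2:137115069-137115693, 21 reads, 13.0 to 32.1) and at 5.31-fold in aged HSCs (chr2:137115130-137115413, 23 reads, 14.6 to 34.5), the highest fold of any Notch H3K4me3 peak. The young peak contained the whole aged peak. The upstream peak was listed at 3.31-fold on 22 reads in young and at 4.64-fold on 20 reads in aged HSCs, and the 2 shared 191 bp. The background under the young peak was 5.94 reads and that under the aged peak 3.52, so the lower young fold stood on more reads. In aged HSCs 2 H2AK119ub1 regions of 200 bp, at 3.10-fold and 3.39-fold, lay between the aged H3K4me3 peaks, and young HSCs had none. The upstream stretch shared by both ages is shown on the minus strand with its 19 CG in capitals, since it holds no annotated transcript and lies 659 bp before the start site.
Jag1 H3K4me3 at both ages, chr2:137117303-137117493: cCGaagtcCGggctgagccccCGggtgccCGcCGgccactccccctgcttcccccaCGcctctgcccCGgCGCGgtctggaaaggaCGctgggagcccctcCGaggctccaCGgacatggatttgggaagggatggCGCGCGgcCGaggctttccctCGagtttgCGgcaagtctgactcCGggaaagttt

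Jag2, the second Jagged ligand, had neither H3K4me3 nor H3K27me3 at any age. A single young H2AK119ub1 region lay 1374 bp upstream of its start site (chr12:112931150-112931372). It reached 4.32-fold and a −log10 q of 3.68, and 99.5% of the young list was weaker. No aged region overlapped it. The aged list instead held 3 regions at other upstream positions, 707, 3278 and 3834 bp from the start site, at 3.05-fold to 3.44-fold, and the nearest of them placed Jag2 among the promoters listed in aged HSCs only.

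Hes1, the basic helix-loop-helix repressor that Notch switches on in many tissues, had no peak within 1 kb of its coding start site in any list. In young HSCs H3K4me3 was listed 1136 bp downstream of its coding start site, at 4.04-fold on 18 reads (10.7 to 28.4), and 5344 bp downstream, at 3.23-fold on 15 reads (8.40 to 24.7). The second had a weaker q-value than all but 4.45% of the young list. The first lay 138 bp from the start of a noncoding Hes1 transcript, so it missed the promoter only by the rule chosen. With a promoter of 2 kb Hes1 was counted, and the young H3K4me3 promoter count went from 5 to 6. In aged HSCs no H3K4me3 was listed, and H2AK119ub1 lay on either side of the gene, 2753 bp upstream (595 bp, 3.25-fold) and 2763 bp downstream (200 bp, 3.14-fold).

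Hey1, a related repressor that Notch also switches on, was the only Notch gene with all 3 marks in its window at a single age, and had them at both ages. H3K27me3 covered 4546 bp in young HSCs, 32.7% of the window, in 3 regions of 2013, 1587 and 946 bp at 3.07-fold to 3.59-fold. In aged HSCs it covered 2122 bp, 15.3% of the window, in 4 regions at 2.97-fold to 3.32-fold, each of which overlapped a young region. H2AK119ub1 covered 300 bp in young HSCs, in a single region 2274 bp upstream at 2.78-fold, and 3359 bp in aged HSCs, in 7 regions at 2.78-fold to 4.18-fold. The strongest of these lay 1228 bp upstream (chr3:8668484-8668974, −log10 q of 3.76), with 99.0% of the aged list below it. The aged H3K27me3 and H2AK119ub1 regions interlocked, and 3 of the 4 H3K27me3 regions overlapped an H2AK119ub1 region (21.5% of the whole aged H3K27me3 list). H3K4me3 was listed at different places: the young peak lay 738 bp downstream at 3.66-fold (17 reads) wholly inside the H3K27me3 region of 2013 bp, and the aged peak lay 198 bp downstream at 4.64-fold (20 reads) outside both Polycomb marks. The young interval for these reads was 9.90 to 27.2 and the aged one 12.2 to 30.9.

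**Figure D4:**
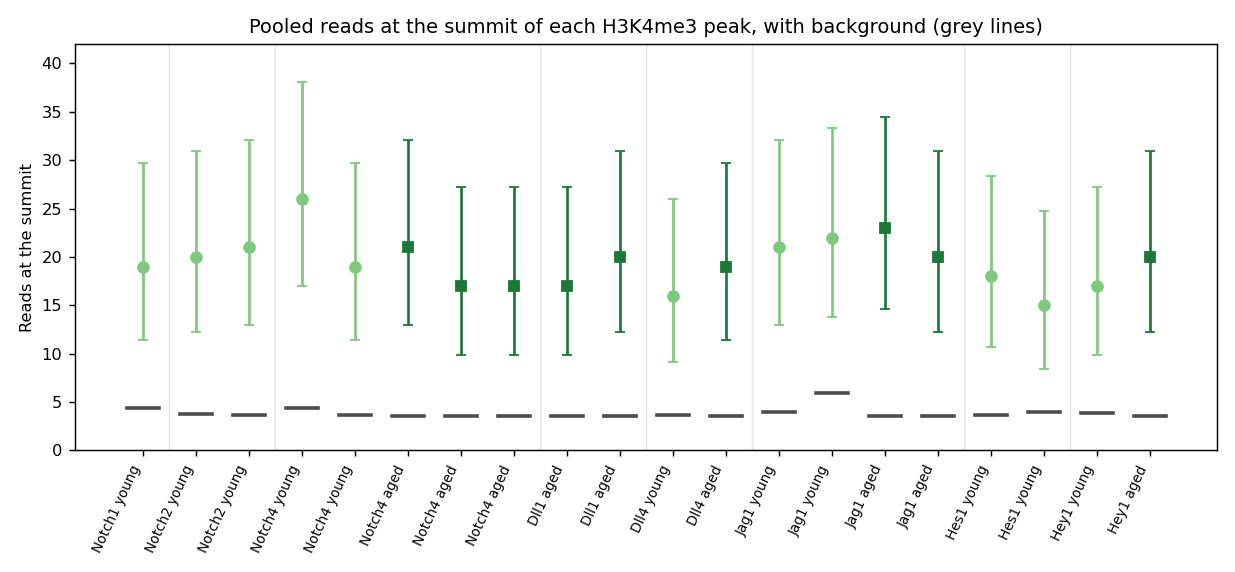
Pooled reads at the summit of each H3K4me3 peak of the Notch genes, by gene and age, with exact Poisson 95% intervals that cover counting error only. Grey lines give the background reads of the same position; summits hold 15 to 26 reads in young HSCs (light circles) and 17 to 23 in aged HSCs (dark squares), and all the intervals overlap.

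Over the 10 windows together, H3K4me3 covered 3581 bp in 11 peaks of young HSCs and 2808 bp in 9 peaks of aged HSCs. The aged length was 0.784 of the young one, and 0.529 for the whole lists. H3K27me3 covered 9048 bp in 10 regions and 2543 bp in 6 regions, a ratio of 0.281 beside 0.244 for the whole lists. H2AK119ub1 covered 2076 bp in 6 regions and 11228 bp in 31 regions, a ratio of 5.41 beside 7.83 for the whole lists. Mean fold enrichment differed far less, for H3K4me3 at 4.04 in young and 4.50 in aged HSCs, for H3K27me3 at 3.07 and 3.18, and for H2AK119ub1 at 3.35 and 3.28. In young HSCs H2AK119ub1 covered 0.461% of the Notch windows and 0.0663% of the windows of all genes. In aged HSCs it covered 2.49% and 0.527%, and Hey1 alone held 3359 of the 11228 bp. H3K27me3 covered 2.01% of the Notch windows in young HSCs, near the 2.16% of all genes, and 0.565% in aged HSCs, near 0.561%. The ratios for H3K4me3 and H2AK119ub1 turned direction when both lists were reduced to an equal number of peaks, to 1.30 and 0.870, and the H3K27me3 ratio came to 0.582.

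Peak positions were compared between the ages. All 6 aged H3K27me3 regions of the Notch windows overlapped a young region (66.0% of the whole aged list), and 4 of the 10 young ones overlapped an aged region (15.4%). With an equal number of peaks per age, 3 of the 6 aged regions did. Of the 31 aged H2AK119ub1 regions 3 overlapped a young region (7.07% of the whole list), and of the 6 young ones 3 overlapped an aged region (50.9%). For H3K4me3 the counts were 4 of 11 young peaks (31.5% of the list) and 4 of 9 aged peaks (53.1%), and all 8 belonged to Jag1 and Notch4. The H3K4me3 peaks of Dll4 and Hey1 were thus listed at both ages at different positions in the same promoter. Across marks, the young promoter of Hey1 held both H3K4me3 and H3K27me3, as did 2.96% of all genes, and in aged HSCs it did so again, beside 0.792%, though the aged H3K27me3 region reached into the promoter by under 100 bp. H3K4me3 and H2AK119ub1 met at the promoters of Dll4, Jag1 and Hey1 in aged HSCs, beside 3.16% of all genes. However, no peak of these 3 genes under one of those marks overlapped a peak of the other. Over the 10 windows, 2 of 6 young H2AK119ub1 regions overlapped an H3K27me3 region, beside 74.2% of the whole list. In aged HSCs 4 of 31 did, beside 25.9%.

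The promoter sequences of the Notch genes were compared in the RefSeq windows of 300 bases, from 250 before to 50 after a start site, of build GRCm38.p6. Windows were found for the receptors and ligands, 8 of the 10 genes, and not for the targets Hes1 and Hey1. They numbered 9, with 2 for Dll1, among 32851 windows of 27025 genes. The ratio of CG dinucleotides observed to those expected from base composition had a median of 0.706 in the Notch windows and 0.384 in all windows. It ran from 0.214 at Notch4, which had no promoter peak in any list, to 1.14 at Jag2, which had no H3K4me3. The median GC content was 63.7% and 52.7%. The core of the RBPJ binding motif, TGGGAA, searched on both strands, was in none of the 9 receptor and ligand windows and in 25.6% of all windows, and its longer form GTGGGAA, which contains it, was in none and in 6.38%. These letters were searched in these windows only. TGGGAA does occur in the Jag1 stretch shown above and, on the opposite strand, in the Notch2 stretch, and both lie outside the windows. With 9 windows, the absence is no sign that the motif is rarer at Notch genes.

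Beyond the 10 genes, 43 others of the pathway were listed by role and all were found. H3K4me3 was at the promoters of 25 of the 43 in young and 9 in aged HSCs: 8 at both ages, 17 in young only and 1 (Dtx2) in aged only. The shares of all genes in these 3 classes were 17.5%, 16.3% and 5.78%. The proteases that cut the receptor formed the fullest group, with 8 of 9 in young and 3 of 9 in aged HSCs, and held neither Polycomb mark at any age. Adam17, a metalloprotease that sheds the outer part of receptors, had H3K4me3 in young HSCs only, at 5.74-fold. Ncstn, a subunit of gamma-secretase, was listed at 5.97-fold in young and 5.08-fold in aged HSCs, and Adam10, the main protease of the ligand-bound receptor, at 5.10-fold and 4.20-fold. In the nucleus, 4 of 6 genes of the transcription complex were listed in young and 1 in aged HSCs, and Rbpj itself was listed in young HSCs only, at 4.11-fold. With the same number of peaks at each age, 15 of the 43 promoters in young and 9 in aged HSCs held H3K4me3. The young count depends on which of the peaks tied at the cut were kept.

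The glycosyltransferases, which tune the receptor's choice of ligand, had H3K4me3 at 3 of 5 promoters in young and 1 of 5 in aged HSCs. Pofut1, which adds the first fucose, was listed in young HSCs only, at 5.31-fold. Mfng, a Fringe enzyme, was listed at 4.30-fold in young and 5.97-fold in aged HSCs. Its relative Lfng had H3K4me3 in young HSCs at 4.04-fold and H2AK119ub1 in aged HSCs at 3.29-fold. Among the other genes of the HES and HEY family, H3K4me3 was listed at 5 of 7 promoters in young HSCs, with Hes6 at 5.04-fold, and at 1 of 7 in aged HSCs, Hey2, at 5.31-fold in young and 4.64-fold in aged HSCs. With an equal number of peaks per age, Hes6 and Hey2 alone of these 7 were listed in young HSCs, and neither listing of Lfng was left. The young Lfng peak, however, was tied at the cut, a −log10 q of 4.22. A Hes1 peak of the same fold and q-value was kept, since tied peaks were kept in the text order of chromosome names. In that order chr16 (Hes1) comes before chr5 (Lfng). The loss of the young Lfng peak is thus no sign of a weaker signal.

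**Figure D5:**
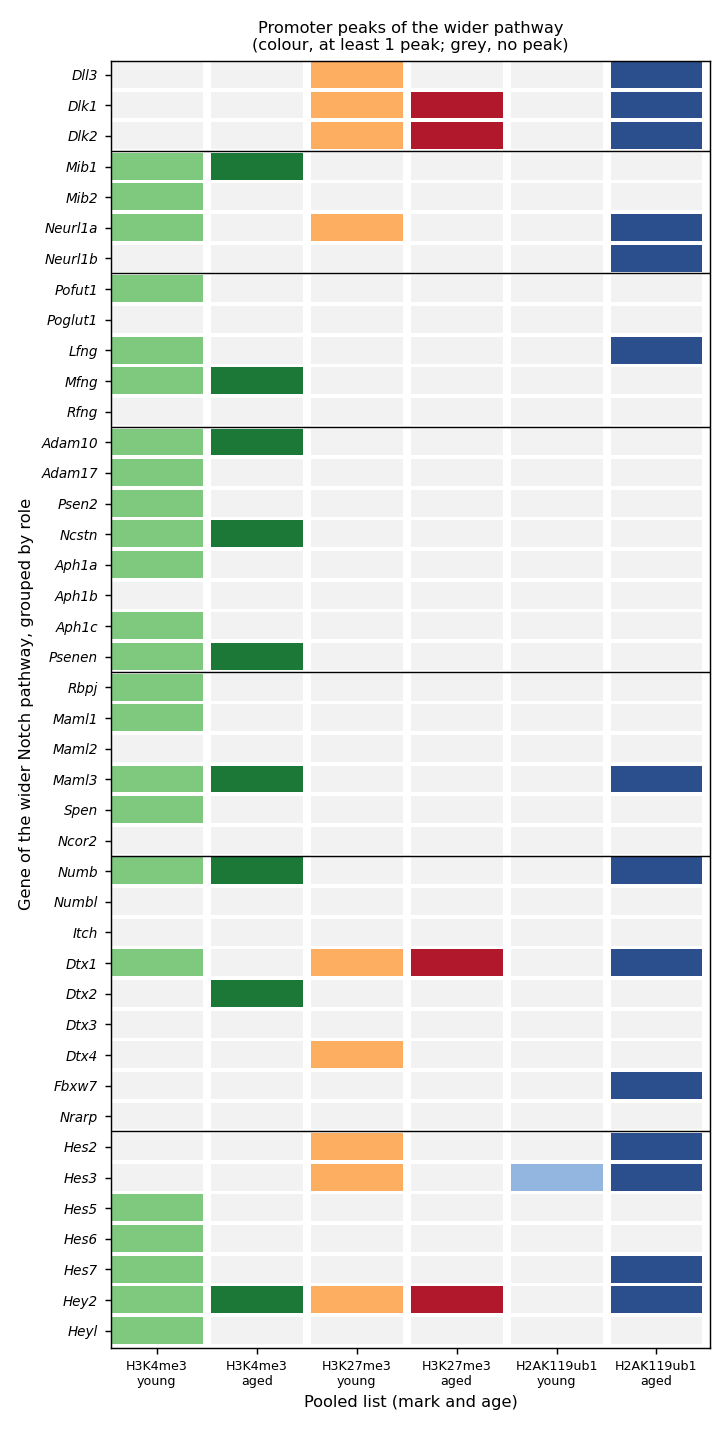
Promoter peaks of 42 of the 43 further Notch pathway genes (rows, with lines between the roles: ligands, ligand ubiquitin ligases, glycosyltransferases, proteases, nuclear complex, regulators, HES and HEY family) in the 6 pooled lists (columns). Coloured cells hold at least 1 peak within 1 kb of a coding start site; the protease rows are coloured under H3K4me3 only, and the 3 ligands under the Polycomb marks only.

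Polycomb marks in the wider pathway were listed at all 3 further ligands and at some of the regulators and HES and HEY genes. H3K27me3 was at 9 of the 43 promoters in young (16.0% of all genes) and 4 in aged HSCs (8.24%), and all 4 aged ones (Dlk1, Dlk2, Dtx1 and Hey2) were also listed in young HSCs. H2AK119ub1 was at 1 promoter in young HSCs, that of Hes3 (3.32-fold, and 2.97-fold in aged HSCs), and at 14 in aged HSCs, beside 1.91% and 14.0% of all genes. When both ages kept the same number of peaks, the H2AK119ub1 counts were 1 and 2 (Dlk2 and Dtx1). Dlk1 and Dlk2, membrane proteins related to the Delta ligands, had H3K27me3 at 3.55-fold and 3.56-fold in young and at 3.02-fold and 3.41-fold in aged HSCs. Both were listed under H2AK119ub1 in aged HSCs only, as was Dll3, a ligand that acts within its own cell, at 3.53-fold. Hey2, a close relative of Hey1, resembled it in carrying H3K27me3 at both ages, at 3.86-fold and 3.12-fold, and H2AK119ub1 in aged HSCs only. Dtx1, a Deltex ubiquitin ligase, had H3K27me3 at 3.65-fold in young and 2.71-fold in aged HSCs and H2AK119ub1 at 3.82-fold in aged HSCs. Neurl1a, a ligase that acts on ligands, had H3K27me3 at 3.79-fold in young HSCs only, as had Hes3 at 3.63-fold, Dtx4 at 3.23-fold and Hes2 at 3.17-fold. Its relative Neurl1b was listed under H2AK119ub1 in aged HSCs alone, at 3.48-fold.

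The cells were checked by the promoters of marker genes. H3K4me3 was listed at 7 of 10 HSC markers at each age, beside 33.8% of all genes in young and 23.3% in aged HSCs. Ly6a (Sca-1) and Slamf1 (CD150) were absent from both lists, Kit (c-kit) from the young one and Gata2 from the aged one. The genes of the antigens that the sorted cells carried were thus unlisted in young HSCs. None of the T cell, B cell and granulocyte markers was listed at either age. Of the endothelial markers 2 of 3 (Tie1 and Emcn) were listed at both ages and Cdh5 at neither. Of the erythroid ones 2 of 4 were listed in young and 0 of 4 in aged HSCs. None of the 4 markers of tissues outside blood (Alb, Neurod1, Myod1 and Epcam) was listed under H3K4me3 at either age. What part other cells have in the listings of Notch4 and Dll4 was not tested.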

How the data were processed

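The authors aligned reads to mm10 with Bowtie2, and the submitters' processing notes also name MACS2 2.2.6. The deposited lists are pooled by mark and age, narrow peaks for H3K4me3 and broad regions for both Polycomb marks. The peak names of the broad lists carry 1 library number, so whether both replicates were pooled in them is uncertain. Each list gives, as deposited by the authors, a fold enrichment over background (a linear ratio), the −log10 of the p-value and q-value of each peak, and a display score (not used here). For broad regions these are averages over the region.

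Peaks on the autosomes and on X and Y were compared with GENCODE M21 in Python 3.11.15 (numpy 2.4.6, pandas 2.3.3). Start sites were the 41438 of protein-coding transcripts in its basic set, and an overlap of 1 bp counted. For H3K4me3, the whole reads at a summit and the background were solved from fold enrichment and p-value (scipy 1.17.1), which succeeded for 100.0% of peaks to within 0.002 of the −log10 p. Depth was unknown for the broad regions. The recovery and the overlap counts were tested on simulated data. The members and gene lists were chosen with earlier results of these data known. All 10 Notch genes were named, and of the wider pathway, for each mark, the up to 4 genes of highest promoter −log10 q listed at 1 age and the up to 4 listed at both, with Rbpj and Lfng in any case; 1 of these genes is counted but not reported by name here. Peaks were also recounted under 7 alternatives. Single libraries, inputs and display scores were not analysed here.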

Additional observations from a re-analysis of the deposited data

How the results depend on the processing

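No paired analysis was possible because the lists are pooled and carry no replicates. Of 79 recounted values 42, all of them counts, stayed within 1.5 times the main count. The other 37 were counts that did not, or length ratios. No length ratio was classed as unchanged, even where it was close to the main value (0.757 against 0.784, 5.58 against 5.41). Apart from the effect of keeping fewer peaks the cause was not tested. With a −log10 q of at least 4, every Polycomb count of promoters, windows and overlapping peaks was 0 at both ages. That cut left 1601 of 63142 young and 39 of 20419 aged H3K27me3 regions. For H2AK119ub1 it left 5 of 2593 young and 128 of 17768 aged regions. With so few regions left in the whole lists, these zeros say little about the Notch genes. The young H3K4me3 counts were 2 promoters and 4 windows, 2 peaks of each age overlapped, and the H3K4me3 length ratio was 0.923. With equal numbers of peaks per age, the aged-to-young length ratio turned to 1.30 for H3K4me3 and to 0.870 for H2AK119ub1, and was 0.582 for H3K27me3. The young H3K4me3 counts were then 2 promoters and 4 windows, that of Hes1 through a peak tied at the cut. The aged H2AK119ub1 counts were 1 and 2, and the overlapping peaks 1 at each age for H2AK119ub1 and 2 young and 3 aged for H3K27me3. In the gene body alone, 1 young H2AK119ub1 gene was left, and the ratios were 0.757 (H3K4me3), 0.216 (H3K27me3) and 5.58 (H2AK119ub1). An overlap of at least 100 bp took the aged H3K27me3 count of promoters to 0, since Hey1 alone was listed. Requiring 50% of the peak left 2 overlapping young peaks for H3K4me3, 2 for H3K27me3 and 0 aged ones for H2AK119ub1. A promoter of 2 kb raised the young H2AK119ub1 count to 2. The start sites of all transcripts changed no promoter count by more than 1.5 times.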
